A study of Drosophila melanogaster with 6 samples.

Results

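Long noncoding RNAs were examined in T4/T5 neurons, the direction-selective neurons of the Drosophila melanogaster optic lobe, after knockdown of the homeobox gene Drgx. They were taken as every feature of the count table whose FlyBase symbol starts with lncRNA: or asRNA: (antisense RNA) and whose level averaged at least 5 CPM (the count divided by the library total and multiplied by 1000000) in the control or in the knockdown group. This gave 86 RNAs, 75 with the first prefix and 11 with the second, of 2435 features with such symbols and 23932 features in all. The RNAs were thus chosen by their mean CPM in each group, and these levels are given as a description. Of the 86, 72 reached 5 CPM in both groups, 8 in control only and 6 in knockdown only. An RNA that reached the level in 1 group only had to differ between the group means.

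Both groups carried the driver R23G12-Gal4 and the membrane marker UAS-CD8-GFP, and the cells were those that the driver marks in brains of climbing L3 larvae raised at 25 °C. Both were carried in 1 copy. Control animals had in addition 1 copy of UAS-cherry-IR, an inverted-repeat hairpin against the cherry fluorescent protein, placed opposite the driver. Knockdown animals had instead 1 copy of UAS-DRGX-IR, a hairpin against Drgx, placed opposite the marker, and the sex of the larvae is not given in the labels. Each group had 3 libraries made from total RNA with SMART-Seq v4, a kit that amplifies full-length complementary DNA and does not mark the strand. The labels do not say whether the libraries of a group came from separate cultures or sorts, so p-values measure only the spread between these libraries.

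Long noncoding RNAs are transcripts without a long open reading frame. Some act as RNA on chromatin or on RNA-binding proteins, some are the precursors from which microRNAs are cut, and for many no function is known. In flies the best known are roX1 and roX2, which join the MSL complex on the male X chromosome. Hsromega is a stress-induced nuclear RNA that gathers hnRNP proteins in omega speckles. cherub, known from neural stem cells, binds the RNA-binding proteins Syp and Staufen. A noncoding gene often lies inside or beside a coding gene, and reads of a kit that does not mark strand cannot be split between a noncoding RNA and a partner on the other strand.

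Library totals ran from 29587960 to 44054609 counts, so that 5 CPM stood for 148 to 220 counts. The lowest count of any of the 86 RNAs in any library was 11. Drgx itself stood at 2132, 2128 and 2102 CPM in control and 747, 723 and 670 CPM in knockdown. Of 9 T4/T5 genes (acj6, Drgx, TfAP-2, grn, bi, dac, SoxN, Sox102F and ato), 5 fell and all were detected. The 5 were Drgx, which the hairpin targets, bi, dac, SoxN and Sox102F. The genes acj6, TfAP-2, grn and ato did not pass, at 0.22, −0.04, −0.07 and −0.29 on the log2 scale. The summed level of 7 glial genes was 587 to 636 CPM in control and 781 to 857 CPM in knockdown, and 2 of them, Gs2 and nrv2, rose. Most of the sum was nrv2, with means of 456 CPM in control and 606 CPM in knockdown. The others did not pass: repo was at 0.01 on the log2 scale (9.61 and 9.90 CPM), and alrm, Eaat1, moody and wrapper were at 0.33 to 0.69. The summed level of 4 neuronal genes was 1780 to 1835 CPM in control and 1544 to 1598 CPM in knockdown, and nSyb, brp and Syt1 fell. The most abundant of them, elav, averaged 1016 CPM in control and 1019 CPM in knockdown (log2 fold change −0.02, edgeR adjusted p 0.895). Of 5 hemocyte genes, which summed to 0.946 to 3.39 CPM in control and 3.95 to 7.04 CPM in knockdown, Ppn rose. Photoreceptor genes summed to at most 2.11 CPM in any library. The hemocyte genes srp and NimC1 and the photoreceptor genes ninaE and trp were at 0 in every library, and 8 progenitor genes summed to 227 to 251 CPM in control and 262 to 275 CPM in knockdown, with none past the threshold. The part of other cells in the values that follow was not tested. In sorted bulk cells, fewer cells of a type and less RNA per cell cannot be told apart.

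Together the 86 RNAs took 1.54% to 1.61% of the counts of a library, with no separation of the groups. The level was concentrated in a few of them: 3 RNAs held 57.3% of the summed CPM and the highest 10 held 86.6%. Over the 6 libraries, 16 RNAs averaged at least 100 CPM, 31 averaged 10 to 100 CPM and 39 averaged less than 10 CPM. Their median exon length was 1296 bases, against 2193 for tested protein-coding genes. A single block of exon made up 60.5% of them, against 10.1% of tested protein-coding genes. They lay on X (14), 2L (16), 2R (10), 3L (23), 3R (21) and 4 (2).

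The most abundant RNA was CR46006 (FBgn0267668, 3L, 10323501 to 10367450, plus strand), which holds the gene of the microRNA mir-276a. It stood at 4106, 3886 and 3780 CPM in control and 3901, 3856 and 3589 CPM in knockdown, and the groups overlapped. Its log2 fold change of −0.08 (SE 0.0427) did not pass the threshold, with an edgeR adjusted p of 0.417. Next came roX1, CR42862 and noe, all called and described below. Per kilobase of exon the order was different: CR40469, of 214 bases, led at 3500 CPM per kb, followed by noe at 1317, CR34335 at 736 and roX1 at 580 CPM per kb, while CR46006 stood at 376 CPM per kb. CR40469 (X, 122493 to 122706) ran from 537 to 993 CPM within the control group alone and from 656 to 848 CPM in knockdown, so that its replicates spread more widely than its group means of 742 and 756 CPM lay apart.

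In total 15 of the 86 RNAs (17.4%) passed an adjusted p of 0.05 in edgeR's quasi-likelihood test, fitted and adjusted over all 9932 tested features, of which 6.21% passed. Of these, 6 rose and 9 fell, or 6 and 6 with library-size scaling in place of TMM. Among all tested features, 2.10% rose and 4.11% fell. Among the 6756 tested features that met the same level rule, 8.32% passed, 2.86% rising and 5.46% falling. The median log2 fold change was −0.08 over the 86 RNAs and 0.00 over all tested features. Of the 15 calls, 11 were on RNAs at or above 5 CPM in both groups. CR44320, CR43151 and CR45332 reached that level in control only, and CR44795 in knockdown only. The 6 rises were CR44795, CR43126, CR30009, CR44506, CR45911 and noe. The 9 falls were CR44320, CR45332, CR44978, CR45242, CR43151, roX2, CR46004, CR42862 and roX1. None of the 11 antisense-named RNAs was among them.

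**Figure D1:**
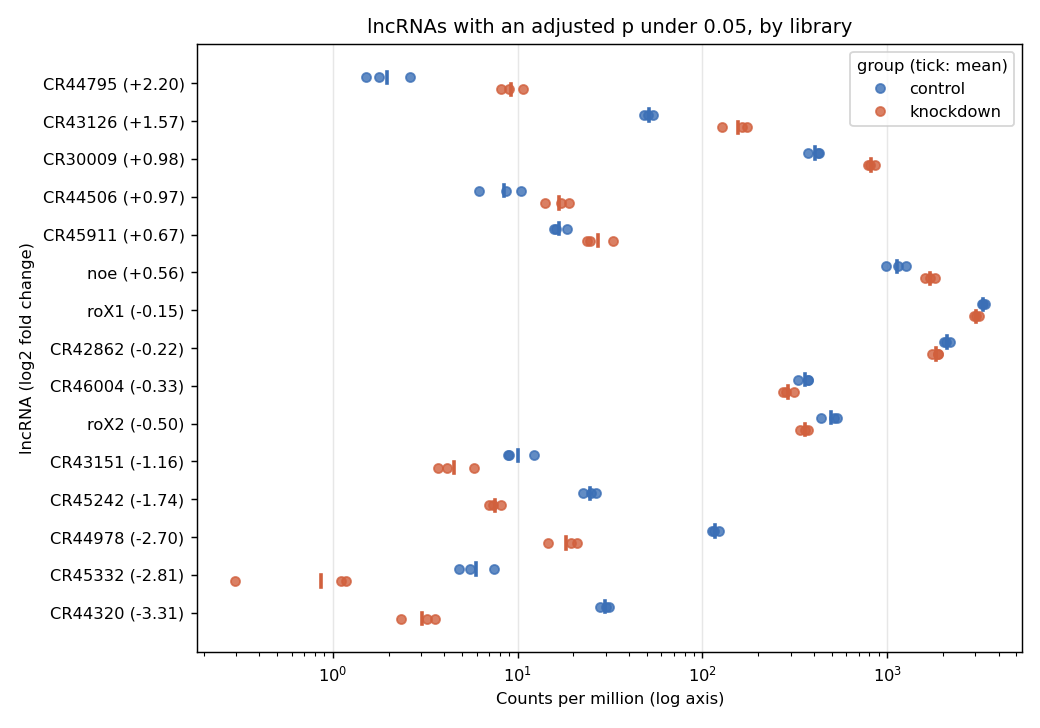
CPM (log axis) of the 15 lncRNAs with an edgeR adjusted p under 0.05, 1 point per library, 3 control and 3 knockdown libraries each, with a tick at each group mean and the log2 fold change beside the name. No lncRNA shown has overlapping groups, and the points of CR44320, CR44978, CR45332 and CR44795 lie far apart between the groups.

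Control and knockdown libraries did not overlap in 30 of the 86 RNAs (34.9%), 15 in each direction, where 23.5% of all tested features and 26.5% of those at the same level did not. All 15 called RNAs were among the 30. A further 14 RNAs had an unadjusted p under 0.05 and did not pass after adjustment. The 71 RNAs that were not called ran from −1.20 to 0.97 on the log2 scale, and 59 of them lay within 0.5 of 0. DESeq2 called 7 rises and 13 falls, the same 15 RNAs and 5 more: mimi, CR46003, CR43148, asRNA:CR44984 and asRNA:CR42254.

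**Figure D2:**
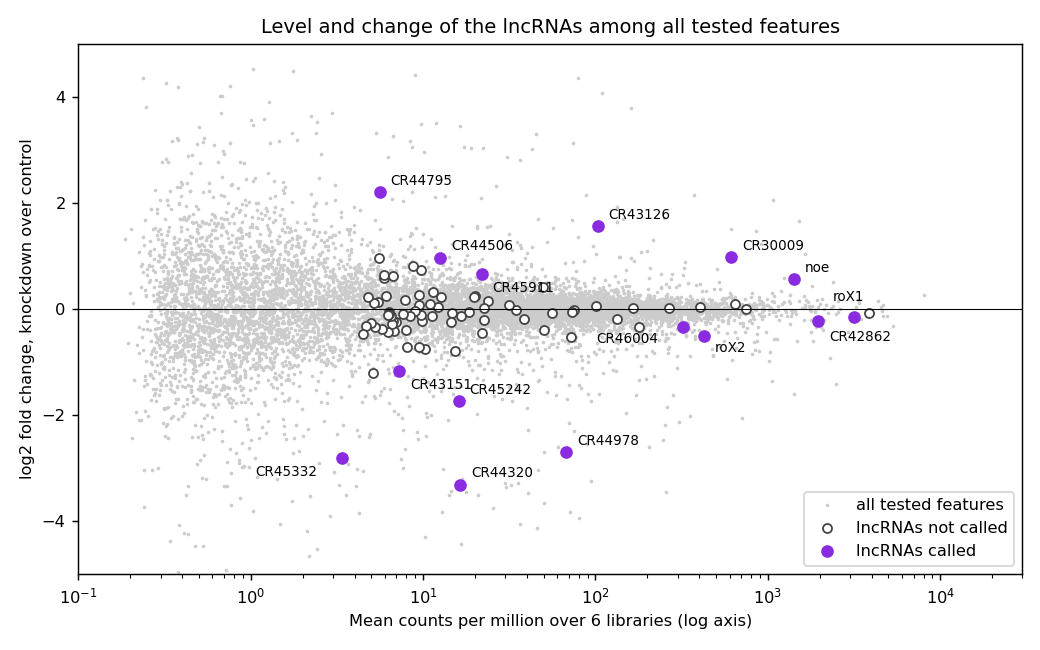
Mean CPM over 6 libraries (log axis) against the log2 fold change of knockdown over control for all tested features (grey), the 71 lncRNAs that were not called (open) and the 15 that were (filled). At 100 CPM or more, 7 of 16 lncRNAs were called. The calls were 5 of 31 at 10 to 100 CPM and 3 of 39 below that. Of all tested features 6.21% were called, and 8.32% of those averaging at least 5 CPM in either group. The shares of all features within each of these levels were not computed. Not drawn are 49 features beyond a log2 fold change of 5 in size.

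The most strongly reduced RNA was CR44320 (FBgn0265379, 3R, 26195250 to 26230268, plus strand). It stood at 29.9, 27.8 and 31.3 CPM in control and 3.57, 3.24 and 2.35 CPM in knockdown. The knockdown mean was 10.3% of control, a log2 fold change of −3.31 (SE 0.202, edgeR adjusted p 4.95e-06). Its end shares 21 bases of exon with the start of CG12290 (FBgn0039419, 3R, 26230248 to 26234700), a coding gene that follows it on the same strand. CG12290 stood at 75.2, 62.9 and 55.6 CPM in control and 6.67, 5.07 and 8.53 CPM in knockdown. Its log2 fold change was −3.28 (SE 0.199, edgeR adjusted p 4.90e-06), so the 2 changes differed by less than either standard error. The shared bases are 1.94% of the exon length of CR44320.

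CR44978 (FBgn0266313, 2L, 19600697 to 19605490, minus strand) lies in an intron of Lar, on the other strand. Lar (FBgn0000464, 2L, 19586623 to 19732069) encodes a receptor protein tyrosine phosphatase of growing axons and synapses. CR44978 stood at 113, 115 and 123 CPM in control and 19.5, 21.0 and 14.6 CPM in knockdown. The log2 fold change was −2.70 (SE 0.147, edgeR adjusted p 2.08e-06), and its level per kilobase of exon was 69.7 CPM per kb over all libraries. Lar stood at 77.1, 93.7 and 93.0 CPM in control and 52.7, 50.9 and 52.3 CPM in knockdown, with 6.77 CPM per kb. Lar fell by 0.79 on the log2 scale (SE 0.111, edgeR adjusted p 0.00169), so the host gene changed in the same direction and by less.

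CR44795 (FBgn0266030, 2L, 5615230 to 5615661, plus strand) lies in an intron of DIP-eta, on the other strand. DIP-eta (FBgn0031725, 2L, 5601723 to 5617946) encodes a cell-surface immunoglobulin protein that pairs with Dpr proteins. CR44795 stood at 1.51, 1.77 and 2.60 CPM in control and 10.7, 8.08 and 8.94 CPM in knockdown, a log2 fold change of 2.20 (SE 0.308, edgeR adjusted p 0.00162). DIP-eta stood at 125, 137 and 141 CPM in control and 617, 623 and 597 CPM in knockdown, a log2 fold change of 2.16 (SE 0.0731, edgeR adjusted p 9.19e-08). Both genes rose by a closely similar factor, 4.72-fold in the means of CR44795. The lncRNA's level was 13.0 CPM per kb and that of DIP-eta 125 CPM per kb. Because the kit does not mark strand, reads from unspliced DIP-eta RNA in this intron can be counted for CR44795. Their part was not tested.

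CR43151 (FBgn0262681, 3L, 157818 to 158211, minus strand) likewise lies within an intron of a gene on the other strand, p130CAS (FBgn0035101, 3L, 152884 to 174517), which encodes an adaptor protein of integrin signalling. It stood at 12.3, 8.88 and 8.92 CPM in control and 3.70, 5.78 and 4.17 CPM in knockdown. CR43151 fell by 1.16 on the log2 scale (SE 0.264, edgeR adjusted p 0.0290), a call that was lost when any library but knockdown replicate 2 was left out (adjusted p 0.0777 to 0.125). p130CAS stood at 359, 347 and 329 CPM in control and 299, 295 and 250 CPM in knockdown, a fall of 0.32 (SE 0.0794, edgeR adjusted p 0.0427). Both moved down, the lncRNA by more. The lncRNA's level was 18.5 CPM per kb and that of p130CAS 76.4 CPM per kb. As for CR44795, reads from unspliced host RNA can be counted for CR43151, and their part was not tested.

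Of the called RNAs inside a coding gene, noe (FBgn0026197, 3L, 17400272 to 17401348) was the 1 whose host was not called. It is a nervous-system RNA transcribed from the same strand as blot, a transporter gene (FBgn0027660, 3L, 17396031 to 17421514), in an intron. It stood at 980, 1150 and 1267 CPM in control and 1810, 1605 and 1702 CPM in knockdown, the largest gain in CPM among the 86 RNAs. The log2 fold change was 0.56 (SE 0.0927, edgeR adjusted p 0.00474). blot stood at 14.9 ± 3.86 CPM in control and 13.1 ± 1.44 CPM in knockdown (SD, n = 3 each). Its log2 fold change was −0.20 (SE 0.209, edgeR adjusted p 0.740). With 3.04 CPM per kb for the exons of blot and 1317 for noe, the host's exons were read far less than the RNA inside it.

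Among called RNAs between genes, CR30009 (FBgn0050009, 2R, 10261315 to 10263827, minus strand) was the most abundant that rose. It stood at 371, 428 and 424 CPM in control and 862, 791 and 810 CPM in knockdown. The log2 fold change was 0.98 (SE 0.0727, edgeR adjusted p 1.98e-05), a 2.01-fold rise of the mean. Its end lies 39 bases from the end of CG12911 (FBgn0033501, 2R, 10256686 to 10261276) on the other strand, so the genes converge. CG12911 was low, at 0.725, 0.840 and 1.41 CPM in control and 5.19, 6.42 and 3.85 CPM in knockdown. It rose by 2.34 on the log2 scale (SE 0.442, edgeR adjusted p 0.0107). Because the kit does not mark strand, reads past the annotated end of the more abundant CR30009 can be counted for CG12911. Their part was not tested.

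CR43126 (FBgn0262741, 3R, 28586048 to 28591386, plus strand) starts 784 bases from fkh (FBgn0000659, 3R, 28580976 to 28585264) in the divergent arrangement. fkh encodes a forkhead-box transcription factor. CR43126 stood at 54.0, 48.5 and 50.7 CPM in control and 174, 127 and 164 CPM in knockdown, a 3.03-fold rise of the mean. The log2 fold change was 1.57 (SE 0.116, edgeR adjusted p 1.89e-05). fkh stood at 1598, 1533 and 1435 CPM in control and 2166, 2048 and 2066 CPM in knockdown, a log2 fold change of 0.43 (SE 0.0438, edgeR adjusted p 1.99e-04). Neither gene's groups overlapped, and the exons of CR43126 overlap no other annotated gene.

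The region of the mir-276 genes on 3L held 5 of the 86 RNAs within 124.7 kb, with changes that differed along it. From the left these are CR44541, CR45242, CR46003, CR46004 and CR46006, with the coding genes Or67c, can and Or67d between them. CR45242 (FBgn0266777, 3L, 10269482 to 10270353, plus strand) stood at 26.4, 22.5 and 24.9 CPM in control and 8.13, 7.00 and 7.38 CPM in knockdown. It fell by 1.74 on the log2 scale (SE 0.159, edgeR adjusted p 9.10e-05). Its divergent neighbour can (FBgn0011569, 3L, 10263909 to 10267111), which encodes a TBP-associated factor known from the testis, starts 2371 bases away. can stood at 41.3, 43.2 and 46.6 CPM in control and 18.2, 11.7 and 11.2 CPM in knockdown, a fall of 1.71 (SE 0.191, edgeR adjusted p 3.89e-04). No control value of either gene was near a knockdown value.

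Farther along, CR46004 (FBgn0267666, 3L, 10306678 to 10320600, plus strand), the host of mir-276b, stood at 371, 372 and 327 CPM in control and 313, 282 and 273 CPM in knockdown. It fell by 0.33 (SE 0.0723, edgeR adjusted p 0.0242), and the call was lost without control replicates 1 or 2 or knockdown replicates 2 or 3 (adjusted p 0.0627 to 0.126) and with library-size scaling (0.0621). CR46003 (3L, 10286945 to 10307968), on the minus strand, shares 455 bases of exon with it. CR46003 stood at 196 ± 24.8 CPM in control and 159 ± 11.3 CPM in knockdown (SD, n = 3 each), with the same log2 fold change of −0.33 (SE 0.0983) and an edgeR adjusted p of 0.0975. CR44541 was at 5.17 and 8.17 CPM, a log2 fold change of 0.63 (SE 0.261, edgeR adjusted p 0.259). The abundant CR46006, 2901 bases beyond CR46004 on the same strand, was at −0.08.

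**Figure D3:**
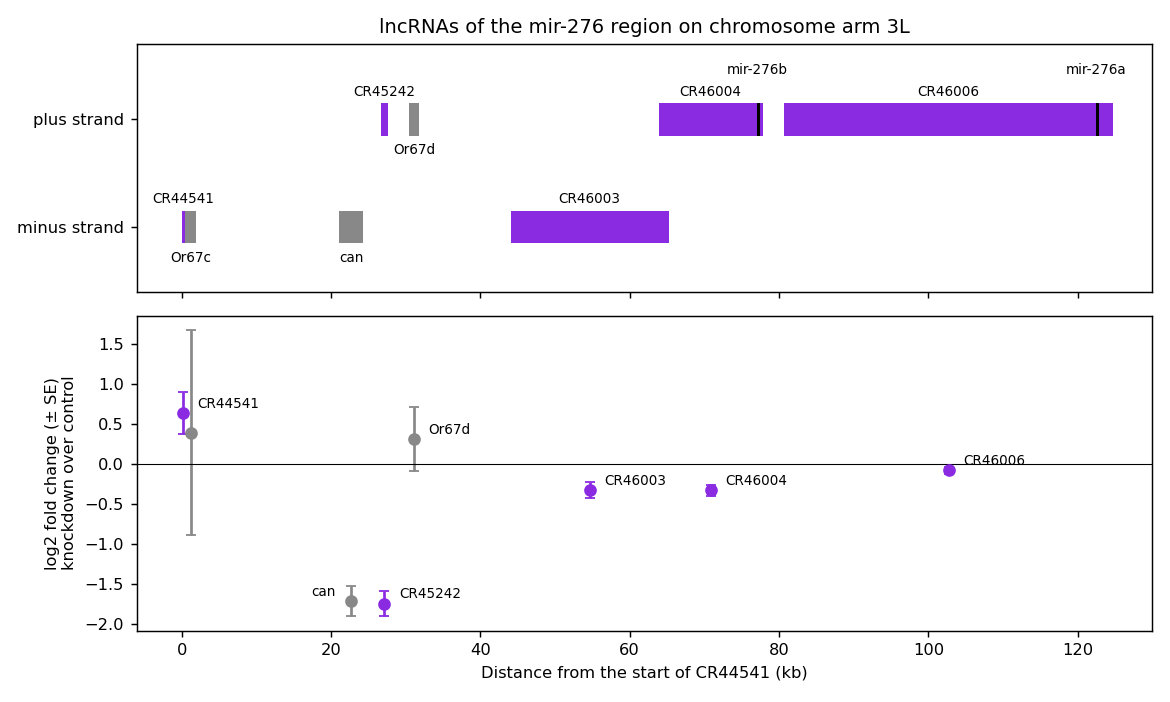
Gene map of the mir-276 region on chromosome arm 3L (top, lncRNAs in purple, coding genes in grey, microRNA genes in black, horizontal axis in kb from the start of CR44541) and the log2 fold change of each tested gene there with its standard error from edgeR (bottom, 6 libraries). CR45242 and can lie near −1.7, CR46003 and CR46004 at −0.33 and CR46006 near 0.

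Of the 86 RNAs, 11 hold the gene of at least 1 microRNA on their own strand, 16 microRNA genes in all. All 16 microRNA genes share bases with host exons and were listed at 0 counts in every library. Reads there may have been counted for the host or dropped, so the zeros do not measure the microRNAs. The values concern the host transcript and not the mature microRNA. Of these hosts, CR46004 fell and CR45911 rose. CR45911 (FBgn0267571, 3R, 15417320 to 15420710, minus strand) holds mir-2c, mir-13a and mir-13b-1. It stood at 18.5, 16.2 and 15.7 CPM in control and 23.8, 24.6 and 32.9 CPM in knockdown. The log2 fold change was 0.67 (SE 0.165, edgeR adjusted p 0.0440), a call that was lost whichever library was left out (adjusted p 0.0534 to 0.169). Atx2, 43 bases from it in the convergent arrangement, was at −0.12 (SE 0.0885, edgeR adjusted p 0.604).

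The other 9 hosts were not called. CR45919, which holds mir-124, a microRNA of neurons, stood at 117, 92.3 and 86.1 CPM in control and 114, 105 and 90.8 CPM in knockdown, with overlapping groups and a log2 fold change of 0.05 (SE 0.124, edgeR adjusted p 0.919). CR45388, with mir-315, was at 0.02, and CR31044, with mir-279 and mir-996, at −0.11. CR43459, with mir-277 and mir-34, had groups that did not overlap, at 4.95, 7.08 and 6.72 CPM in control and 9.27, 13.8 and 10.6 CPM in knockdown. Its log2 fold change was 0.81 (SE 0.249) and its edgeR adjusted p 0.105. CR45054, 3236 bases upstream on the same strand, was at 0.97 (SE 0.331, edgeR adjusted p 0.148), also without overlap.

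The RNAs of dosage compensation were both lower. Both act on the male X chromosome, and the sex of the larvae is not given in the labels. A difference between the groups in the share of males was not tested and cannot be told apart from the knockdown here. roX2 (FBgn0019660, X, 11579065 to 11580432) stood at 437, 513 and 535 CPM in control and 339, 374 and 359 CPM in knockdown, 72.2% of the control mean. It fell by 0.50 (SE 0.0919, edgeR adjusted p 0.00937), or to an adjusted p of 0.0595 without control replicate 2. roX1 (FBgn0019661, X, 3857230 to 3862697) stood at 3377, 3281 and 3258 CPM in control and 3135, 2944 and 3030 CPM in knockdown, 91.9% of the control mean. Its fall of 0.15 (SE 0.0346, edgeR adjusted p 0.0305) was lost without any 1 control library or knockdown replicate 3 (adjusted p 0.0595 to 0.116), with library-size scaling (−0.12, adjusted p 0.138) and with 2 other filters. The groups did not overlap for either RNA. roX1 shares 392 bases of exon with ec on the other strand, which was at no more than 3.36 CPM, and 87 bases with an annotated transposable element.

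The protein-coding partners of the roX RNAs did not pass the threshold. msl-2, whose protein is made in males, stood at 128, 120 and 114 CPM in control and 115, 108 and 108 CPM in knockdown, with a log2 fold change of −0.16 (SE 0.0761, edgeR adjusted p 0.360). msl-1, msl-3, mle, mof and Clamp ran from −0.15 to 0.07. In the list of 8 genes, 0 rose and 2 fell, the roX genes themselves, and the median was −0.10. The 1625 tested features on the X had a median log2 fold change of −0.01, as did those of 3L, against 0.01 on 2L, 2R and 3R and −0.09 over the 293 tested features on 4.

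Hsromega and cherub were abundant and not called. Hsromega (3R, 21296127 to 21317836) stood at 555, 317 and 312 CPM in control and 409, 354 and 463 CPM in knockdown, so control replicate 1 was the highest of all. The log2 fold change was 0.03 (SE 0.192, edgeR adjusted p 0.970), and its sign turned without control replicate 2 or 3 or knockdown replicate 3 (−0.11 to −0.07). Of 6 heat-shock genes, added after their values were seen, Hsp26, Hsp68 and Hsp83 were highest among controls in control replicate 1, Hsp70Bc and Hsp70Ba were lowest there, and Hsp27 lay between the other controls. Hsp26, Hsp68 and Hsp70Bc rose in knockdown, by 0.46, 0.55 and 0.95 on the log2 scale (edgeR adjusted p 8.51e-04, 0.00781 and 0.00839). Hsp83, Hsp27 and Hsp70Ba did not pass, at 0.08, −0.06 and −0.56, and reads of the near-identical Hsp70 copies may be split between them. Of 10 genes for proteins of omega speckles, 9 were matched, and 0 rose and 0 fell, with a median log2 fold change of −0.01. The 9 ran from −0.10 for sqd to 0.04 for HnRNP-K.

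cherub (3R, 11247631 to 11256123) stood at 614, 630 and 625 CPM in control and 654, 717 and 655 CPM in knockdown. The groups did not overlap, yet the difference was small, with a log2 fold change of 0.09 (SE 0.0620) and an edgeR adjusted p of 0.570. Of the 4 genes listed with cherub, Syp fell from 993 ± 11.2 to 729 ± 28.6 CPM (SD, n = 3 each, log2 fold change −0.47, edgeR adjusted p 3.47e-04). brat, stau and Imp did not pass, at −0.21, −0.19 and 0.01. None of the 6 tested snoRNA host genes Uhg1, Uhg2, Uhg3, Uhg4, Uhg5 and Uhg8 passed, with a median of 0.12. They carry other symbols and are not among the 86.

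CR42862, CR44506 and CR45332 complete the calls. CR42862 (FBgn0262109, 3L, 224106 to 230964) came after CR46006 and roX1 in abundance, at 2079, 2179 and 2025 CPM in control and 1882, 1736 and 1880 CPM in knockdown. It fell by 0.22 (SE 0.0460, edgeR adjusted p 0.0182) and was not called without control replicate 2 (adjusted p 0.103) or with library-size scaling (0.0610). CG33229, which shares 246 bases of exon with it on the same strand, was at 0.05. CR44506 (FBgn0265699, 2R, 19692214 to 19697195) stood at 8.67, 10.4 and 6.21 CPM in control and 14.1, 17.1 and 19.0 CPM in knockdown, amid odorant-binding protein genes of which none was tested. Its rise of 0.97 (SE 0.227, edgeR adjusted p 0.0335) was lost without control replicates 1 or 3 or knockdown replicates 2 or 3 (adjusted p 0.0864 to 0.137).

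CR45332 (FBgn0266871, 2L, 17901807 to 17902691) was the least abundant of the 86 over all libraries. It stood at 7.41, 5.52 and 4.83 CPM in control and 1.11, 1.18 and 0.294 CPM in knockdown, the last from 11 counts. It fell by 2.81 (SE 0.532, edgeR adjusted p 0.0110), and without control replicate 1 it was at −2.63 with an adjusted p of 0.0578. Its nearest coding gene, 11674 bases away, was not tested. Knockdown values lay below every control value. CR45332 reached 5 CPM in control only, with means of 5.92 and 0.861 CPM. It was thus among the 86 only through the group where it was high, and its fall is given as a description.

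Where each RNA stood relative to other genes was then set beside its change. Small RNA genes and transposable elements left aside, 35 of the 86 overlap no other annotated gene, 21 lie in an intron or share span without sharing exon, and 30 share exon with another gene, 19 of these on the opposite strand only. The calls were 7 of 35, 4 of 21 and 4 of 30 in these 3 classes. Among all tested features 6.21% were called, and 8.32% of those that met the same level rule. Differences between the classes were not tested. For 73 of the RNAs, an overlapping or nearest coding gene was tested, in 78 pairs. Where the lncRNA was called and the coding gene was too, they moved in the same direction in 7 of 7 pairs: CR44320 with CG12290, CR44978 with Lar, CR44795 with DIP-eta, CR43151 with p130CAS, CR30009 with CG12911, CR43126 with fkh and CR45242 with can. Some of the 7 pairs share exon or may share reads, as said above, so their changes are not separate measurements and the agreement is a description. In the other 6 pairs with a called lncRNA the coding gene was not called.

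Among the 65 pairs whose lncRNA was not called, 5 coding genes were. They were Ptp99A, Ten-m and ed, which fell by 0.60 each, and msi and Pdcd4, which rose by 0.38 and 0.31. asRNA:CR44984, inside ed, had the lowest log2 fold change of the uncalled RNAs, at −1.20 (SE 0.350, edgeR adjusted p 0.0874). It stood at 7.72, 7.90 and 5.68 CPM in control and 4.55, 1.93 and 2.97 CPM in knockdown, and 199 bases of its exon are shared with ed. CR42861 lies 101 bases from Pdcd4 in the convergent arrangement and was at −0.72 (SE 0.229, edgeR adjusted p 0.120), so the signs of this pair differed.

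**Figure D4:**
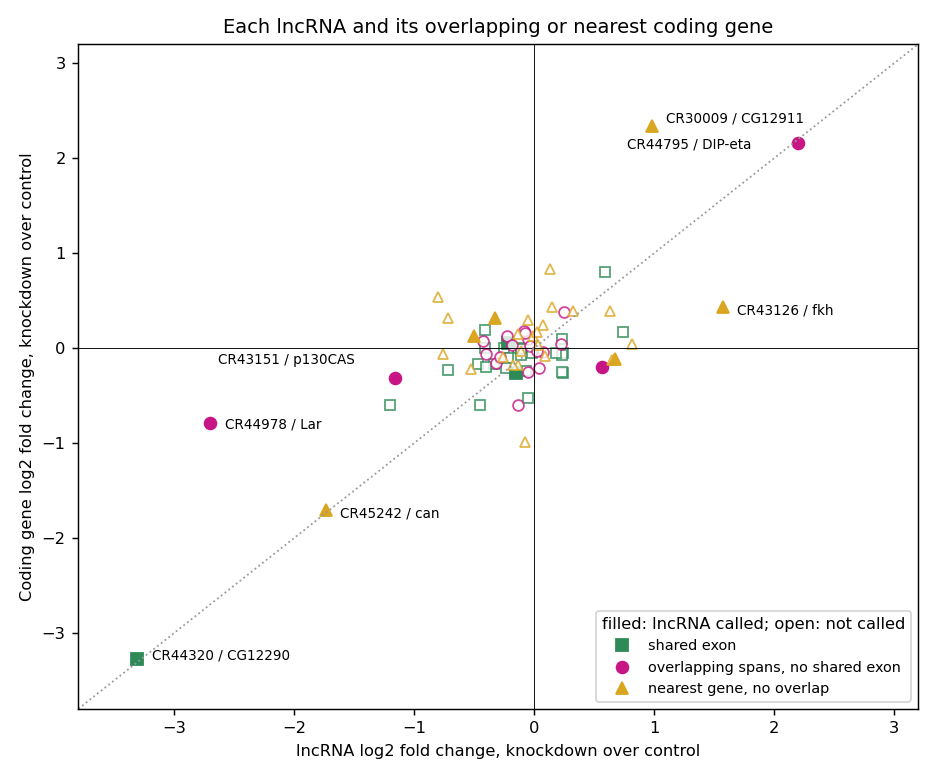
Log2 fold change of each lncRNA against that of its overlapping or nearest tested coding gene, 78 pairs, with filled symbols for called lncRNAs and shapes for shared exon, overlapping spans and neighbours, and a dotted line where both changes are equal. The labelled pairs are the 7 in which both genes were called, and all 7 lie in the quadrants of equal sign.

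Across the 78 pairs, Pearson's r of the log2 fold changes was 0.729 and Spearman's rho 0.370. Without the pairs of lncRNAs that changed by 2 or more on the log2 scale these were 0.501 and 0.292 over 75 pairs. The values of a pair come from the same 6 libraries, and some pairs share reads or a genomic position, so these are descriptions. Of the 78 pairs, 46 had the same sign. Within 10 kb of a called lncRNA, 7 of 36 tested coding genes were called (19.4%), the same 7 as above. Within 10 kb of an uncalled lncRNA, 16 of 189 were called (8.47%), against 6.73% of all 8538 tested coding genes.

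At the level limit, CR45170, CR44851 and asRNA:CR43480 lay just inside, with higher group means of 5.15, 5.18 and 5.21 CPM. CR43130, CR44268 and asRNA:CR43629 lay just outside, at 4.88, 4.92 and 4.96 CPM. Below the limit, 373 further features with these symbols were tested, and 6 of them were called, 1 higher and 5 lower. Of all 9932 tested features 617 were called, and 562 of these were among the 6756 that met the level rule. Calls below the limit were thus few among features of all kinds. Another 1247 of the 2435 had no count in any library.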

How the data were processed

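The authors deposited 1 table of raw counts, 1 column per library and 1 line per feature, all whole numbers, with column totals that differ. STAR, DESeq2 and the build BDGP6 are named in the submitters' processing notes. The counting program, the annotation release and the strand setting are not given in the sources used here, so reads in overlapping genes may be split, dropped or counted for the wrong strand. Symbols, positions and exons come from the Ensembl annotation of BDGP6.54 by identifier: 23851 of 23932 features matched. Of the 81 others, 30 reached 5 CPM in a group and could not be classed by symbol.

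CPM is each count over the library total, times 1000000, with the SD over 3 libraries. Counts passing filterByExpr (minimum count 10) were tested with edgeR 4.0.16 in R 4.3.3 (TMM, quasi-likelihood F test, group as the only term, 6 libraries, Benjamini-Hochberg over 9932 features, threshold 0.05). A standard error is the absolute log2 fold change over the square root of F. Exact permutation of 3 against 3 libraries cannot go below 0.1 and was not used. A count of 0 has an upper limit of 3 counts, 0.0681 to 0.101 CPM, for counting error only. Scripts were tested on simulated counts. The alternatives were DESeq2 1.42.0, limma 3.58.1 (voom), other scalings and filters, the replicate number as a block, each library left out, and 3 other ways to choose the RNAs. Named RNAs were all that passed, the 10 most abundant, those with known roles and those next to the level limit, with overlapping or nearest genes; any further name was picked with its values in view. The RNAs and lists were chosen with earlier results of these data known. No sequences are shown, since only annotation tables were used here.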

Additional observations from a re-analysis of the deposited data

How the results depend on the processing

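The 15 calls kept their direction in all 13 other fits. In all 13, 7 of them also stayed past the threshold: CR44320, CR44978, CR45242, CR44795, CR43126, CR30009 and noe. The other 8 lost it in at least 1 fit. DESeq2 called 952 features in place of 617, and leaving out 1 library gave 399 to 556, the lowest without control replicate 2. With 1 library left out, 4 to 5 of the 86 RNAs rose and 4 to 9 fell, and the 4 falls were without control replicate 2. Counting only RNAs whose exons overlap no other gene gave 6 rises and 5 falls of 56, by construction fewer RNAs. A limit of 5 CPM over all 6 libraries, blind to group, gave 6 rises and 8 falls of 81, without CR45332 (3.39 CPM). Library-size scaling gave 6 rises and 6 falls, without roX1, CR42862 and CR46004. The replicate block gave 4 rises and 8 falls. It ended the calls of CR45911 (adjusted p 0.0902), CR44506 (0.0598) and CR43151 (0.0674). Deviations of same-numbered libraries correlated at 0.0246, −0.017 and −0.0591, and those of the other pairs at −0.0477 to 0.0677. With 3 libraries per group this cannot show whether the numbers pair the libraries, and the labels do not say. CR40469, at 0 in the reported fit and never called, was at 0.01 with DESeq2's size factors and with DESeq2, 0.03 with library-size scaling and limma-voom, 0.04 with the block, and from −0.20 to 0.28 with 1 library left out. Hsromega ran from −0.11 to 0.33 with 1 library left out. The cause of these shifts was not tested. A level of 5 CPM stands for at least 148 counts, and the lowest count, of CR45332 in 1 knockdown library, was 11.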
